A study of Mus musculus with 8 samples.

Results

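The contractile apparatus of smooth muscle was examined through 10 genes in brain microvessels of newborn mice: Acta2, Tagln, Cnn1, Tpm1, Tpm2 and Cald1 of the thin filament, Myh11 and Myl9 of the myosin motor, its kinase Mylk, and the transcriptional coactivator Myocd. They were taken by name, and every probe set annotated to one of them alone was used, 26 of the 45101 probe sets of the array and 10 of 18194 named genes. RNA came from 4 mutant brains, whose genotype is given as PDGFRb (D849V), a knock-in mutation of the receptor gene Pdgfrb, and from 4 wild-type control brains. All mice were at postnatal day 1 and on a 129S/J mixed background, and each brain gave 1 array made from 6 ug of total RNA. Microvessel fragments with their attached pericytes had been captured from dissociated brains with beads that bind PECAM, an endothelial surface protein, so smooth muscle cells entered the samples only as far as they stayed on these vessels. The labels describe the mutant receptor as constitutively active and name pericytes as the cells that carry it; the zygosity of the allele is not given in the sources used here.

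Smooth muscle cells wrap arteries and arterioles and set their calibre, whereas pericytes sit on capillaries and carry less of the contractile machinery. Contraction starts when calcium and calmodulin activate myosin light chain kinase, which phosphorylates the regulatory light chain of smooth muscle myosin so that it pulls on actin filaments lined with tropomyosin, calponin and caldesmon. Most of these genes are switched on together by serum response factor, SRF, which binds DNA motifs called CArG boxes and is helped by myocardin, and PDGF signalling is known in cultured smooth muscle cells for lowering this programme. The comparison asks how these genes stand in newborn brain vessels whose PDGF receptor beta is always active.

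The promoter sequences are shown because several of these genes varied together from array to array, as described further on, and SRF acts through short motifs in such regions. RefSeq windows of assembly GRCm38.p6, from 250 bases before to 50 bases after a listed transcript start, were at hand for 7 of the 10 genes, 8 windows in all; Tagln, Myh11 and Myocd were not matched. The motif searched was CCNNNNNNGG with at most 1 C or G among its 6 inner bases, a pattern that reads the same on both strands. In the lines below, capitals mark such a match and all other bases are in lower case. For Myl9 and Tpm2 the bases of the window that precede the annotated gene are shown. For Acta2, whose matches lie within the annotated gene, each match is shown with 10 bases on either side. The listed start lies within the annotated gene for all of these, so the Myl9 and Tpm2 lines end before it.
Myl9, chr2:156775214-156775407, plus strand: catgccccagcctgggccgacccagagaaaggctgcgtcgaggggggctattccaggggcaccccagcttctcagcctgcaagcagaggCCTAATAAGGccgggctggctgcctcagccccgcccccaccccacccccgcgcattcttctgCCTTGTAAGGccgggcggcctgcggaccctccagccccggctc
Acta2, chr19:34255438-34255467, minus strand: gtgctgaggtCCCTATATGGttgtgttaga
Acta2, chr19:34255388-34255417, minus strand: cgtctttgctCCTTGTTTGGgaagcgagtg
Tpm2, chr4:43523584-43523804, minus strand: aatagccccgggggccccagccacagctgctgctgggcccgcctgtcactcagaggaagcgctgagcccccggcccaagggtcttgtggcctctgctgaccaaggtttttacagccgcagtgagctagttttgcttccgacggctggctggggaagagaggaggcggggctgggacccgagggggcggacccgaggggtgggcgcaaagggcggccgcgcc
Myl9 held 2 matches, which began 161 and 99 bases before the listed start, and the first of them had no C or G inside. Acta2 held 2 matches, 84 and 34 bases before its listed start, each with 1 C or G inside. No match lay in the windows of Tpm2, Tpm1, Cnn1, Mylk or Cald1. Of all 32851 windows, 9.98% held a match of this kind and 1.63% held one with no C or G inside. A match is only a run of letters in the reference sequence, and binding was not measured.

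Of the 10 contractile genes, none passed the test between mutant and control microvessels. Values are log2 expression values made by the authors with GCRMA, means are given ± SD over the 4 arrays of a group, each gene is represented by its brightest probe set, and a gene was tested when it lay above 4 on at least 4 arrays. The genes that met this were 8 of the 10, all but Cnn1 and Myocd. Among these 8, limma with Benjamini-Hochberg adjustment over all 11446 tested genes called 0 at an adjusted p under 0.05, where it called 4.58% of all genes, 2.66% higher and 1.92% lower in mutants. At an unadjusted p under 0.05 there was 1 of the 8, Myh11, against 20.6% of all genes. All 8 differences were negative, with a median of -0.43 on the log2 scale, against a median of -0.11 over all tested genes, of which 7913 were negative. In none of the 8 did the mutant and control values separate completely, against 14.5% of all tested genes.

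Behind these counts lay an unusual spread among the controls. Control array 1 read low for several contractile genes while control arrays 2, 3 and 4 read above every mutant array. Among the mutants, array 4 was the highest for Acta2, Tagln, Tpm2 and Myl9. Each of these genes read lower on mutants 1, 2 and 3 and control 1 than on mutant 4 and the other controls. The pattern in which control 1 lay below all mutant arrays and the other controls above them occurred in 5 of the 10 contractile genes, namely Acta2, Tagln, Tpm2, Myl9 and Cnn1. Of these, Cnn1 was dim and not tested, with control 1 at 2.49 and the lowest mutant at 2.51. Among tested genes the pattern occurred in 4 of the 8 contractile genes and in 31 of all 11446 (0.271%), a description made after the values were seen. Results that rest on control 1 are therefore given with and without it. Leaving it out is 1 of 8 settings in which an array was dropped, and such a setting is no independent evidence, since the values had shown the array to be low.

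**Figure D1:**
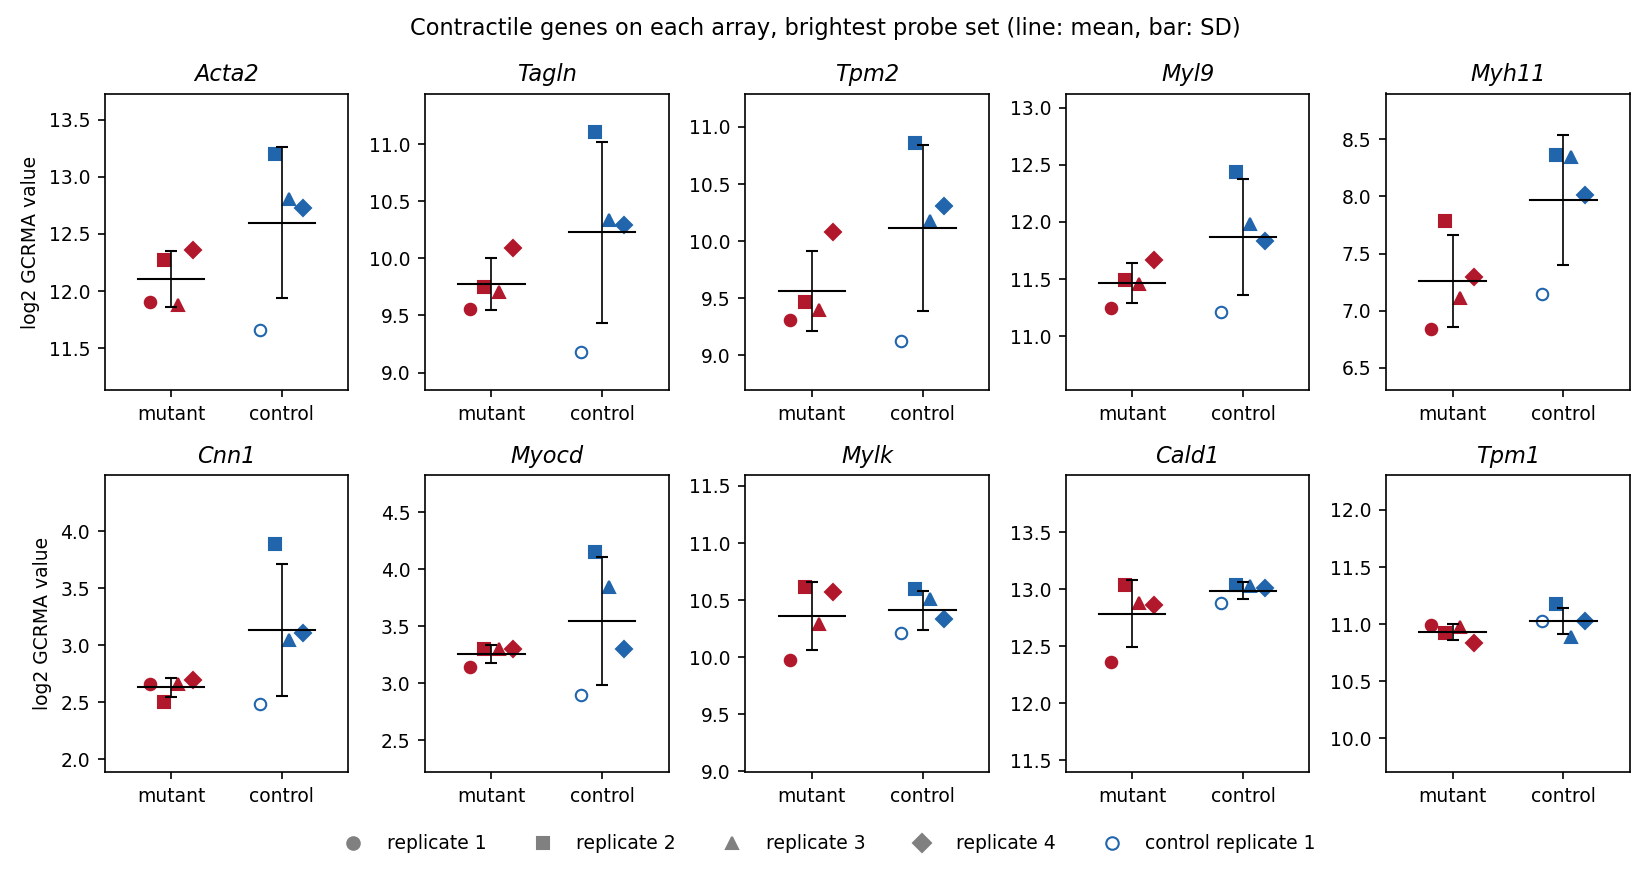
Log2 GCRMA value (vertical axis) of the brightest probe set of each contractile gene on every array, mutant left and control right, with marker shape giving the replicate, the horizontal line the group mean and the bar the SD (n = 4 each). All panels span the same range on the log2 scale. The open circle, control 1, lies below the 4 mutant arrays in Acta2, Tagln, Tpm2, Myl9, Cnn1 and Myocd, while in Tpm1 it does not; in Mylk and Cald1 the lowest array is mutant 1.

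Acta2, the smooth muscle actin of the thin filament, read 11.91, 12.27, 11.88 and 12.36 on the mutant arrays and 11.66, 13.20, 12.80 and 12.73 on the control arrays. The controls enclosed the mutant arrays, with control 1 at the bottom and the other controls at the top. The SD was 0.25 over the mutants and 0.26 over controls 2 to 4. The means were 12.10 ± 0.25 in mutants and 12.60 ± 0.66 in controls, which differ by -0.49 on the log2 scale (95% interval -1.196 to 0.21, limma adjusted p = 0.393). The interval reaches as far as a level 2.29-fold lower in mutants, so a difference of that size was not excluded. Without control 1 the difference was -0.81 (95% interval -1.22 to -0.40), and the adjusted p of 0.0604 still missed the threshold. The suffix of this probe set, 1416454_s_at, marks probes that can be shared by several transcripts, and actin genes are much alike in sequence. The skeletal actin Acta1 was at 2.18 on every mutant array and reached 2.26 on the control arrays, beside a lowest array value of 2.18. Other actins were not at the floor: Actg2 averaged 7.71 ± 0.21 in mutants and 7.97 ± 0.77 in controls and followed Acta2 from array to array, as given further on, and cytoplasmic Actb and Actg1 differed by -0.00071 and -0.04. The part of shared probes in the Acta2 signal was not tested. The second probe set of Acta2, 1444105_at, read 4.07 ± 0.39 in mutants and 4.11 ± 0.71 in controls, near the filter, and the third lay at the floor on all arrays.

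Tagln, transgelin or SM22, an actin-binding protein of smooth muscle, had the widest spread of the controls among the 10 genes. Its single probe set read 9.55, 9.75, 9.71 and 10.09 in mutants and 9.18, 11.11, 10.34 and 10.29 in controls. Again control 1 was the lowest array of all, and control 2 the highest. The difference was -0.45 (95% interval -1.27 to 0.36, limma adjusted p = 0.495), -0.80 without control 1 (95% interval -1.34 to -0.27, adjusted p = 0.124) and -0.16 without control 2 (adjusted p = 0.774).

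Tpm2, the beta tropomyosin that lines the actin filament, gave nearly the same picture on both of its bright probe sets. On 1419738_a_at it read 9.31, 9.46, 9.40 and 10.08 in mutants and 9.12, 10.86, 10.18 and 10.31 in controls. On 1425028_a_at it read 9.44, 9.29, 9.46 and 9.98 in mutants and 9.12, 10.77, 10.09 and 10.17 in controls. On each, control 1 lay below every mutant array and the other controls lay above. The first differed by -0.55 (95% interval -1.35 to 0.24, limma adjusted p = 0.399) and by -0.89 without control 1 (adjusted p = 0.11). Another probe set, 1449577_x_at, read 4.75 ± 0.13 in mutants and 4.84 ± 0.10 in controls, and the fourth lay within 0.5 of the floor on all arrays.

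Tpm1, the alpha tropomyosin, which non-muscle cells also make in other splice forms, hardly varied. Its brightest probe set read 10.995, 10.92, 10.98 and 10.83 in mutants and 11.03, 11.17, 10.89 and 11.03 in controls. The groups overlapped, and control 1 was not the lowest control. The difference of -0.10 had the narrowest interval of the 8 tested genes, -0.30 to 0.10 (limma adjusted p = 0.558), and was -0.10 without control 1 as well. Its next probe set differed by -0.04 and a dim one by -0.28, neither past the test, and the last lay at the floor. Differences beyond 1.23-fold lower in mutants were outside the interval for Tpm1. The paralogous tropomyosins spread unequally among the control brains, with an SD of 0.12 for Tpm1 and 0.73 for Tpm2 on their brightest probe sets.

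Cald1, caldesmon, an actin-binding regulator that smooth muscle and non-muscle cells make in separate forms, read 12.36, 13.03, 12.88 and 12.86 in mutants and 12.88, 13.03, 13.02 and 13.01 in controls on its brightest probe set. Here mutant 1 was the low array, and the controls were tight. The difference was -0.20 (95% interval -0.53 to 0.13, limma adjusted p = 0.453), -0.24 without control 1 and -0.06 without mutant 1. Its other probe sets above the filter differed by -0.09, 0.06 and 0.20, and none passed, so direction was not shared among probe sets. On 1424768_at control 1 was the highest control, at 11.61, whereas on the brightest probe set it was the lowest.

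Cnn1, basic calponin, a marker of differentiated smooth muscle, was dim on every array. Its single probe set read 2.66, 2.51, 2.66 and 2.69 in mutants and 2.49, 3.89, 3.05 and 3.10 in controls, all under the filter of 4, so no test was made. All mutant arrays and control 1 lay close to the lowest array value of 2.18, where values are not resolved, and control arrays 2, 3 and 4 stood slightly higher. Of the markers that define smooth muscle cells here, Acta2, Tagln and Myh11 were thus measured well above the floor and Cnn1 was not.

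Of the motor proteins, Myh11, the smooth muscle myosin heavy chain, is the member most restricted to that cell type. It read 6.84, 7.79, 7.11 and 7.30 in mutants and 7.15, 8.36, 8.35 and 8.01 in controls on 1448962_at. Control 1 fell among the mutant arrays, and the other controls lay above them all. Means were 7.26 ± 0.40 in mutants and 7.97 ± 0.57 in controls. The difference of -0.71 was the largest of the 8 (95% interval -1.40 to -0.02). Its limma p was 0.0461 unadjusted, and the adjusted p = 0.234. Without control 1 it was -0.98 (95% interval -1.51 to -0.45, adjusted p = 0.0721). Its percentile among the differences of all tested genes was 2.04, and the dimmer probe set lay within 0.5 of the floor on all arrays.

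Myl9, the regulatory light chain that the kinase phosphorylates, read 11.25, 11.49, 11.46 and 11.66 in mutants and 11.21, 12.44, 11.98 and 11.84 in controls on its single probe set. Control 1 was again just under the lowest mutant array, and the other controls were above the highest. The difference was -0.40 (95% interval -0.94 to 0.14, limma adjusted p = 0.369), -0.62 without control 1 (95% interval -1.02 to -0.22, adjusted p = 0.113) and -0.21 without control 2 (adjusted p = 0.564).

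Mylk, the myosin light chain kinase, is made from one gene in short and long forms, and its probe sets did not share a direction. On 1425506_at it read 9.98, 10.61, 10.29 and 10.57 in mutants and 10.21, 10.59, 10.51 and 10.33 in controls, a difference of -0.05 (95% interval -0.41 to 0.31, limma adjusted p = 0.883) and of -0.12 without control 1. On 1425505_at it read 9.47, 10.28, 10.09 and 9.65 in mutants and 9.69, 9.68, 9.60 and 9.46 in controls, a difference of 0.27 (95% interval -0.15 to 0.68, adjusted p = 0.484 over all probe sets). The controls spanned little on the second, and mutants 2 and 3 stood above them. Which transcript form each probe set reads was not analysed here. The third was dim, at 3.47 ± 0.55 in mutants and 3.18 ± 0.33 in controls.

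Myocd, myocardin, the coactivator that SRF needs for the smooth muscle programme, was close to the floor. Its brighter probe set read 3.14, 3.30, 3.30 and 3.30 in mutants and 2.90, 4.15, 3.84 and 3.30 in controls, and its other lay at the floor on all arrays. Control 2 alone exceeded the filter of 4. Myocd was not tested.

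**Figure D2:**
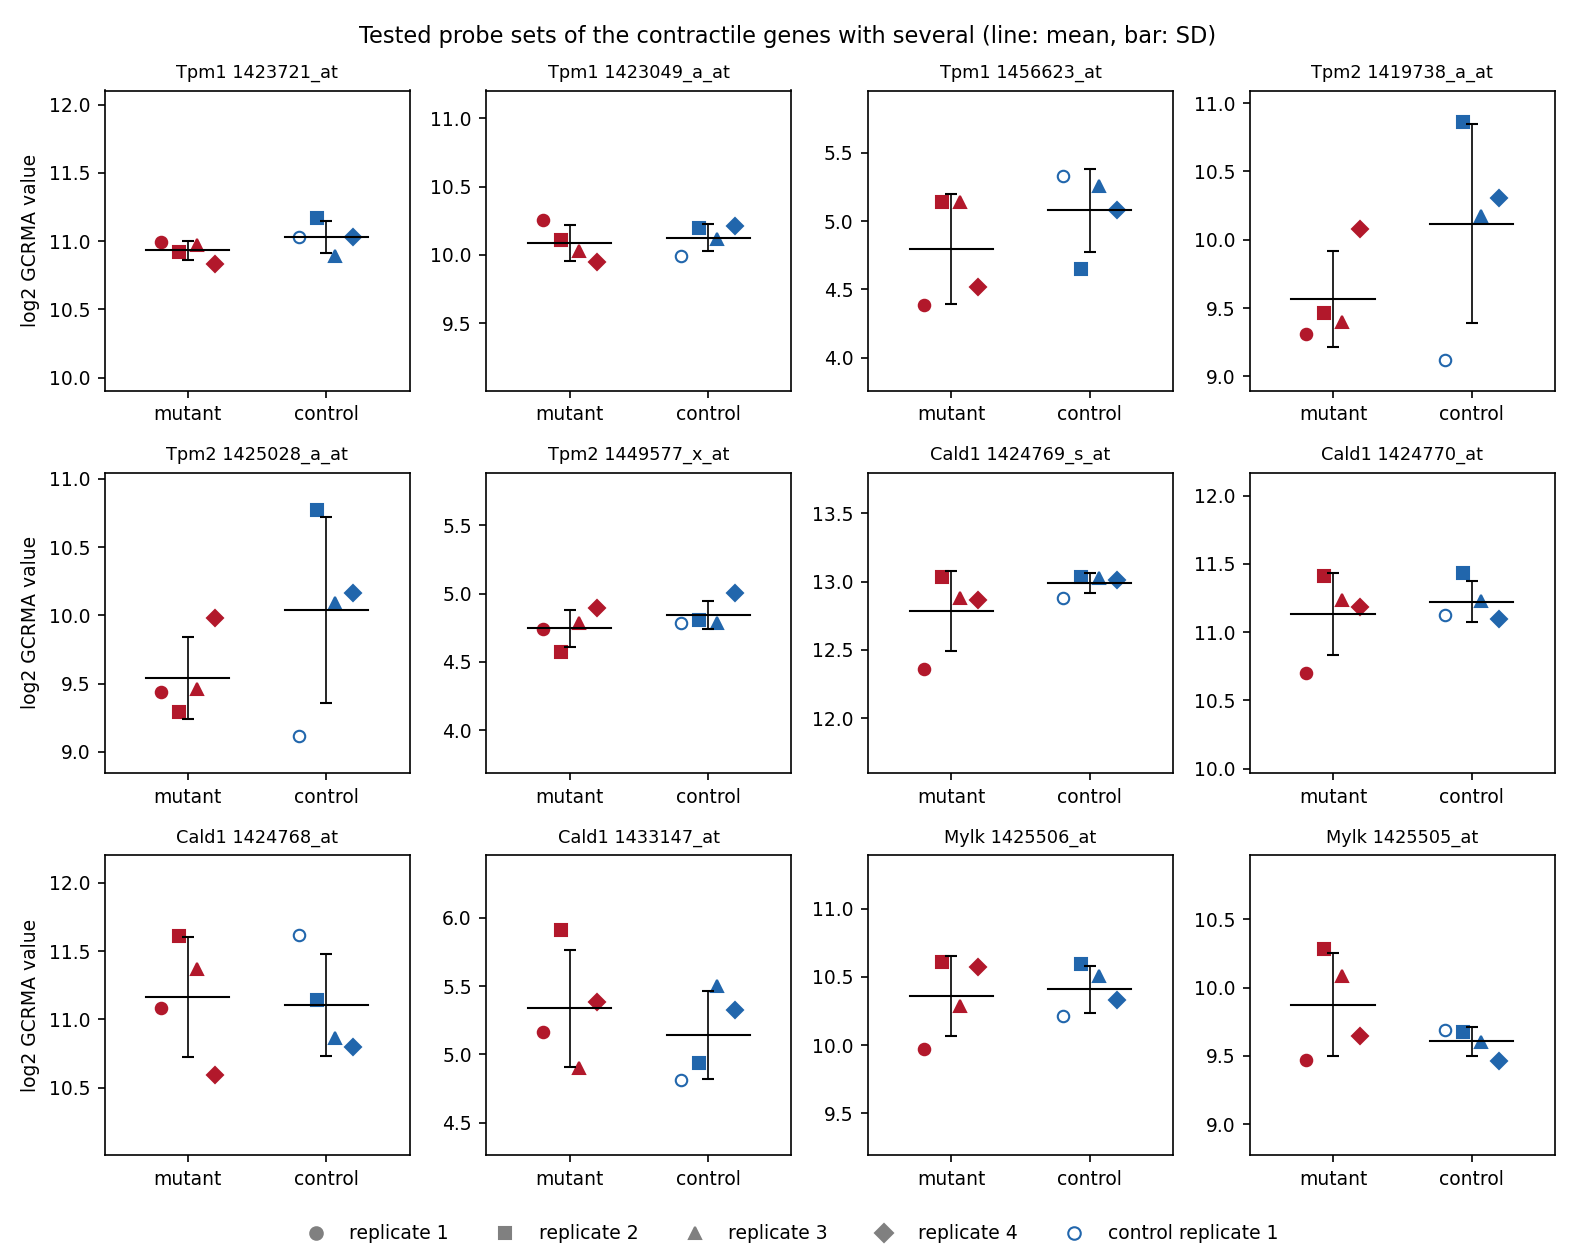
Log2 GCRMA value (vertical axis) of each probe set above the filter for Tpm1, Tpm2, Cald1 and Mylk, mutant left and control right, with the group mean as a line and the SD as a bar (n = 4 each); panels span the same log2 range. The bright pair for Tpm2 repeats one pattern, with control 1 lowest, while the probe sets of Cald1 and of Mylk differ from each other in direction.

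Over single probe sets the outcome was the same. Of the 26, 17 passed the filter, and 0 of these 17 were called by limma over 19302 probe sets, against 2.98% of all; 14 of the 17 differences were negative. At an unadjusted p under 0.05 there was 1, that of Myh11, where the share of all probe sets was 17.3%. Without control 1 no contractile gene and no contractile probe set was called either, where 3.27% of all genes and 2.26% of all probe sets were. In that setting 5 of the 8 tested genes, Acta2, Tagln, Tpm2, Myh11 and Myl9, had mutant values wholly below the control values, against 13.9% of all tested genes in that direction. The same 5 had an unadjusted p under 0.05, against 18.9% of all genes, with adjusted p from 0.0604 to 0.124. Control 1 was singled out because the other controls already lay above the mutants in contractile genes. Neither count can therefore be weighed against the share over all genes. The median difference of the 8 was then -0.71, against -0.09 for all tested genes. In the opposite setting, without the highest control array, control 2, the median was -0.20, and the differences were -0.16 for Tagln, -0.21 for Myl9, -0.29 for Acta2, -0.31 for Tpm2 and -0.58 for Myh11, so both extreme controls move the size.

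**Figure D3:**
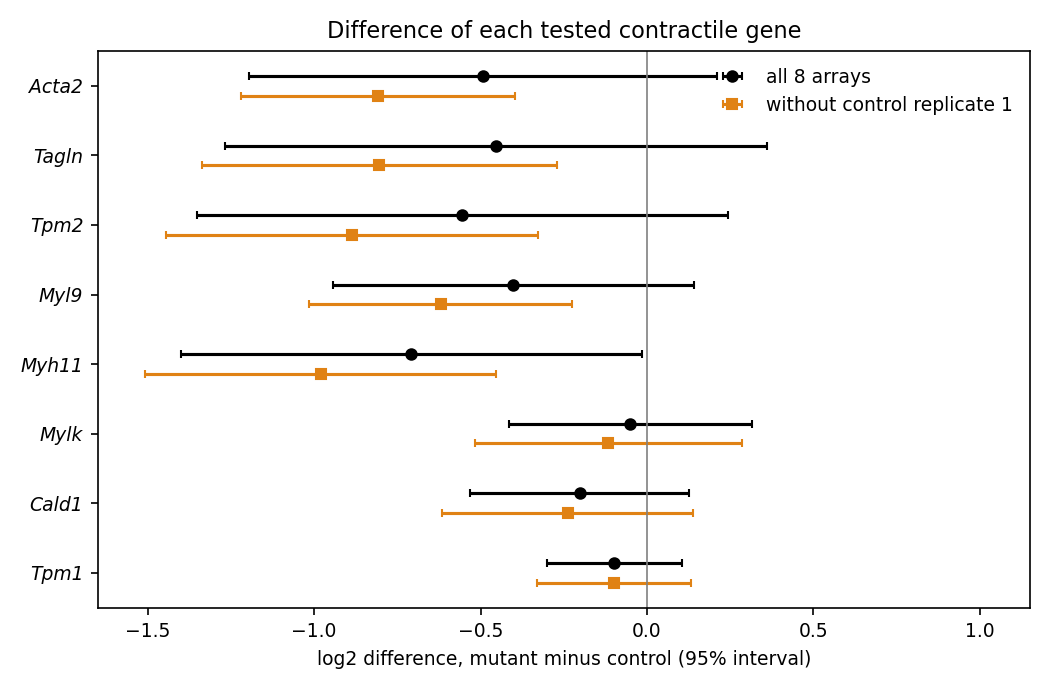
Log2 difference, mutant minus control, of each tested contractile gene (horizontal axis) with its 95% interval from limma, for all 8 arrays (black) and without control replicate 1 (orange). With all arrays only the interval of Myh11 lies wholly below 0; without control 1 those of Acta2, Tagln, Tpm2, Myl9 and Myh11 do, and none of the 8 passes after adjustment in either fit.

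The contractile genes varied together among brains of one genotype, apart from Tpm1 and, in part, Cald1 and Mylk. For this the mean of its group was taken off each gene, and each gene was set against the mean deviation of Acta2, Tagln, Myh11, Cnn1 and Myl9, itself left out where it belonged to them. Over the 8 arrays Pearson's r was 0.98 for Myl9 (Spearman's rho 0.98), 0.98 for Tagln (rho 0.88), 0.97 for Acta2 (rho 0.98) and 0.95 for Tpm2 (rho 0.93). It was 0.92 for Myocd, 0.85 for Cnn1 and 0.80 for Myh11, the first 2 of them dim, then 0.68 for Mylk, 0.43 for Cald1 and 0.15 for Tpm1. These are descriptions over 8 arrays that share one isolation method, given without a test. The mean deviation of the 5 genes was -0.82 on control 1 and 0.64 on control 2, the arrays farthest from its median, and between -0.21 and 0.18 on the other 6. With those 2 arrays left out r was 0.89 for Acta2, 0.87 for Myl9, 0.77 for Tagln, 0.73 for Tpm2, 0.52 for Myh11, 0.48 for Myocd and -0.48 for Cnn1. The likeness of Cnn1 thus rested on controls 1 and 2 and that of Myocd and Myh11 was weaker without them, while Mylk (0.93) and Cald1 (0.75) came closer to the others on the remaining 6 arrays and Tpm1 went against them (-0.86). The sites printed above stand beside Acta2 and Myl9. Tpm2 (r 0.95) and the dim Cnn1 (r 0.85) held no match in their windows, and Tagln, Myh11 and Myocd had no window. Whether the sites bear on the shared variation was not tested.

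**Figure D4:**
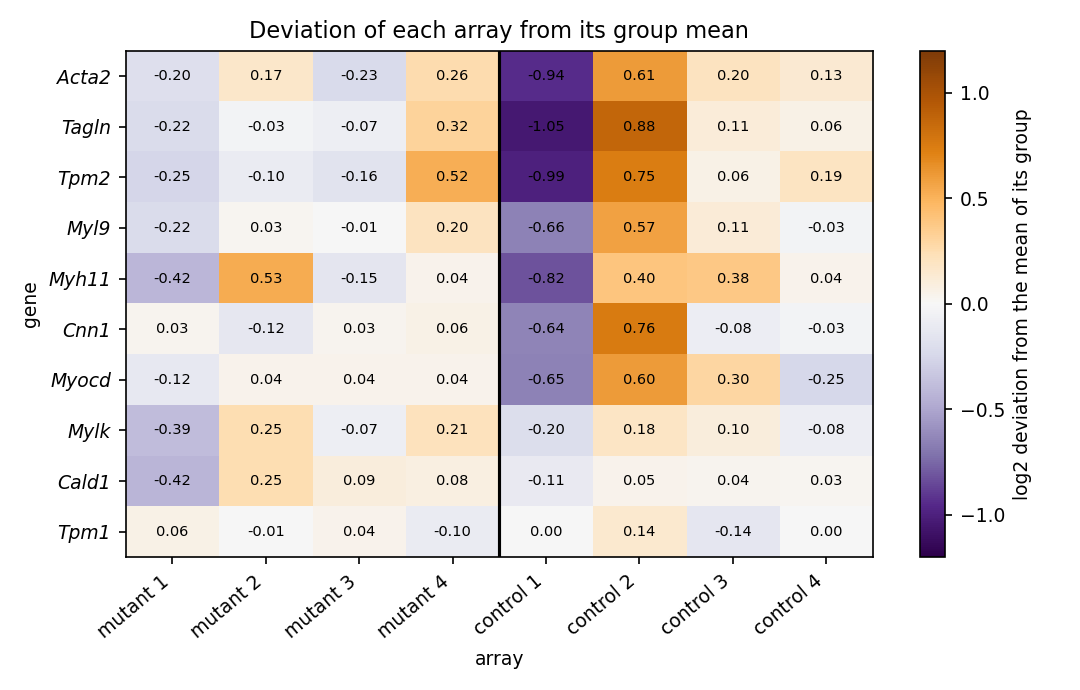
Log2 deviation of each array (columns, mutant left and control right) from the mean of its own group for the 10 contractile genes (rows), brightest probe sets. Control 1 is lowest among the controls in all rows but Tpm1, by up to -1.05 in Tagln, and control 2 is highest in all of them, while the mutant arrays deviate by at most 0.53 in either direction.

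The other genes most like this profile, chosen by the highest r with the same mean deviation, were Actg2, Tbce, Mgp, Atp10a and 1810064F22Rik. Actg2, the smooth muscle actin of the gut that is also an arterial smooth muscle transcript, had r = 0.99 over the 8 arrays and 0.91 without controls 1 and 2. It read 7.56, 7.86, 7.50 and 7.93 in mutants and 6.94, 8.82, 8.08 and 8.04 in controls, which is the order of arrays seen in Acta2. Mgp, matrix Gla protein, an inhibitor of calcification made in vessel walls, had r = 0.98, and 0.96 without those arrays. It differed from the contractile genes between the groups, at 12.37, 12.90, 12.50 and 12.92 in mutants against 11.61, 12.89, 12.42 and 12.40 in controls, where control 1 was the low array but the other controls lay within the range of the mutants. The tubulin cofactor Tbce had r = 0.99, and the flippase gene Atp10a and 1810064F22Rik had 0.97 each, falling to 0.65 and 0.56 without controls 1 and 2. Such likeness was uncommon: r exceeded 0.9 in 60 (0.525%) of the 11430 other tested genes whose values varied.

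Control 1 did not read low in general. It was the lowest control in 24.6% of all tested genes, close to an even share among the controls, and in 7 of the 8 tested contractile genes. Over the 14 endothelial markers, each gene centred on its mean, it stood highest of all arrays, at 0.35, where the mutants ran from -0.48 to 0.07 and the other controls from -0.04 to 0.07. Mutant 4 alone set the low end, and the other mutants ran from -0.02 to 0.07. Pecam1, the gene of the captured protein, read 11.09, 10.96, 10.99 and 9.09 in mutants and 11.27, 9.56, 9.29 and 9.53 in controls. It was thus high on the arrays where Acta2, Tagln, Tpm2 and Myl9 read lower. Pecam1 was named after its values were seen, and no other marker of the endothelial list separated those arrays from the rest. The division in Pecam1 partly follows genotype, and its part in the contractile differences was not tested. Over the 15 pericyte markers control 1 stood at -0.28, between controls 3 and 4, and Rgs5, an abundant pericyte signalling regulator, read 14.72 on it against 14.53 to 14.83 on the other controls. The list of 17 other smooth muscle genes stood at -0.01 on it, within the -0.02 to 0.14 of the other controls. That mean joined opposite moves. Control 1 was the lowest control in 7 of the 17, against the 24.6% of all tested genes. Among these, Actg2 read 6.94 on it, where the other controls ran from 8.04 to 8.82. Csrp1 and Des were instead highest of the controls on control 1, at 10.79 and 5.87. The low reading was thus not confined to the contractile genes. How many arterial or arteriolar fragments each sample held was not recorded in the labels, and in whole-vessel RNA fewer smooth muscle cells and less contractile RNA per cell cannot be told apart.

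**Figure D5:**
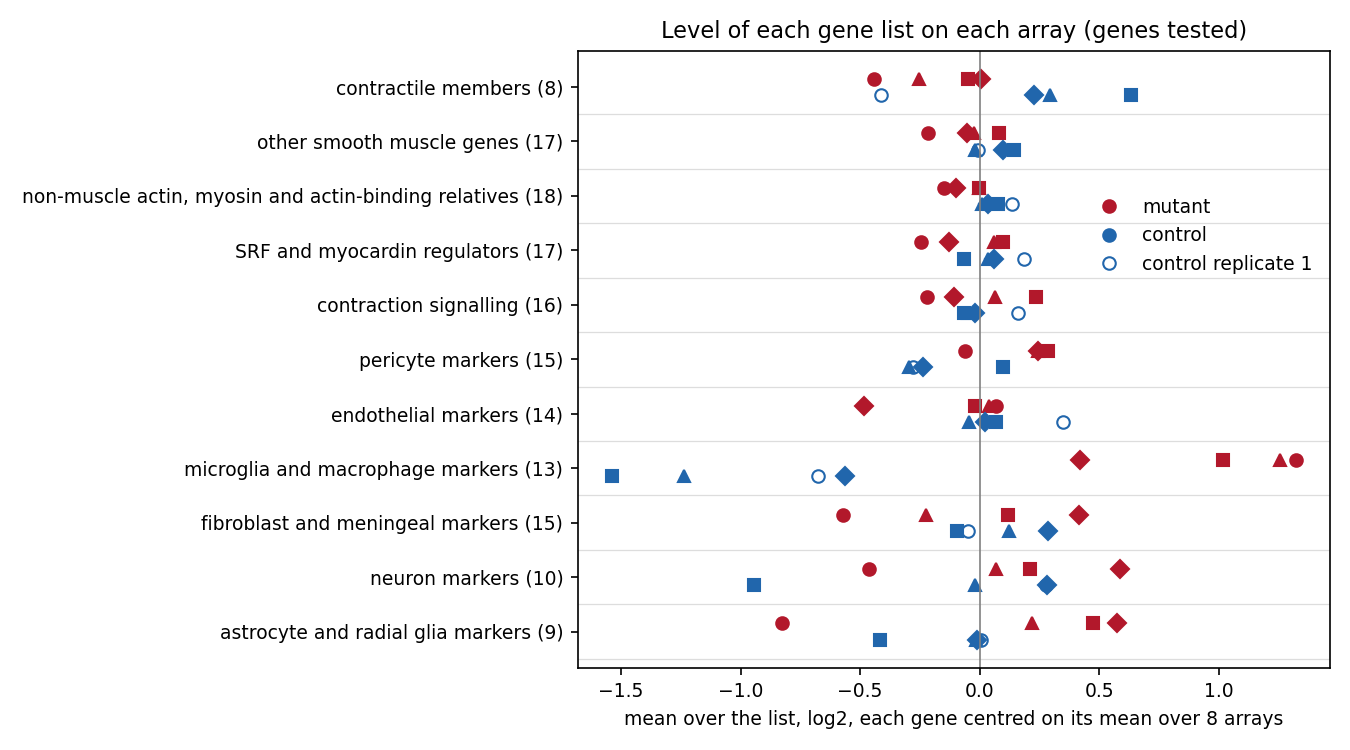
Mean over the tested genes of each list (rows, number of genes in brackets) on each array, after each gene was centred on its mean over the 8 arrays (horizontal axis, log2); red is mutant, blue control, the open circle control 1, and marker shape gives the replicate as in the plot of values by gene. The contractile genes of control 1 lie at -0.41, beside the lowest mutant at -0.44, while its endothelial markers lie at 0.35, above every other array. Mutant 4 is lowest for the endothelial markers, at -0.48, and highest of the mutants for the contractile genes, at 0.005.

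Further lists placed the contractile genes among their neighbours. Of 17 other smooth muscle genes tested, 0 were called (median difference -0.22), against 4.58% of all tested genes. An unadjusted p under 0.05 was found in 3, against 20.6% of all. With so few genes these counts are near the shares over all genes and say little of the wider programme. The brightest members of this list were the intermediate filament gene Vim, at 15.12 ± 0.07 in mutants and 15.15 ± 0.04 in controls, and the LIM protein gene Csrp1, at 10.78 ± 0.48 in mutants and 10.25 ± 0.36 in controls, a difference of 0.52 that did not pass. Lmod1, leiomodin, lay at the floor on all arrays. Desmin, Des, read 5.55 ± 0.16 in mutants and 5.37 ± 0.41 in controls. The list held both signs, 12 negative and 5 positive.

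Among 18 non-muscle relatives of the contractile proteins, Myh10, the heavy chain of non-muscle myosin IIB, was the single gene called. Of all tested genes 4.58% were called, 1.92% of them lower, so the count for this list is near the share over all genes. Myh10 read 12.81, 13.26, 13.09 and 13.20 in mutants and 13.67, 13.54, 13.76 and 13.65 in controls, groups that did not overlap. It was lower in mutants, with a log2 difference of -0.56 (limma adjusted p = 0.0297, SE 0.114). The call was lost in 5 of the 8 settings with an array left out (without mutant 3 or without any one control), where the adjusted p rose as far as 0.0959 and the difference stayed between -0.60 and -0.53. The other 17 did not pass, among them Actb, cytoplasmic beta actin, with a difference of -0.00071. The median of the list was -0.07, and 4 of the 18 had all mutant values below all control values, where 10.4% of tested genes did.

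Of 17 SRF and myocardin regulators, Fhl2, a LIM-domain cofactor of SRF that binds actin-linked signalling partners, was called higher, and none was called lower. Of all tested genes 2.66% were called higher and 1.92% lower, so with so few genes this count is near the overall share. Of the 17 differences 12 were negative. Fhl2 read 7.77, 8.31, 7.96 and 8.02 in mutants and 7.29, 7.26, 7.32 and 7.65 in controls, every mutant array above every control. Its difference was 0.63 (SE 0.139, limma adjusted p = 0.0414). This call was lost in 6 of the 8 settings with an array left out, all but those without mutant 1 or control 4, with a difference of at least 0.53 and an adjusted p of up to 0.121. Srf itself read 8.19, 8.49, 8.45 and 8.30 in mutants and 8.66, 8.67, 8.66 and 8.76 in controls, with no overlap and a difference of -0.33, and it did not pass (adjusted p = 0.0883). Mrtfb, a relative of myocardin that carries actin signals to SRF, differed by -0.64 (adjusted p = 0.0762) and Klf4, a zinc finger factor that represses smooth muscle genes, by -0.28 (adjusted p = 0.115), each again without overlap. Srf, Mrtfb and Klf4 were named after their values were seen. Of the 17, 8 had an unadjusted p under 0.05, where 20.6% of all tested genes did, and the list median was -0.25. In 6 of them all mutant values lay below all control values, where 10.4% of all tested genes had that order.

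Of 16 genes of contraction signalling none was called (median -0.08), against 4.58% of all tested genes. An unadjusted p under 0.05 was found in 1, against 20.6% of all. The brightest members of this list were Rgs5, at 14.59 ± 0.19 in mutants and 14.66 ± 0.14 in controls, and Rhoa, the small GTPase that restrains myosin phosphatase, at 12.75 ± 0.27 in mutants and 12.57 ± 0.21 in controls.

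Markers of other cell types were counted in the same way, without a test between lists. Of all tested genes, 2.66% were called higher and 1.92% lower in mutants. Of 13 microglia and macrophage markers 11 rose (median 2.18), among them Ctss, a lysosomal protease, C1qa, a complement chain, Fcer1g, an Fc receptor chain, and Aif1, a calcium-binding protein, by 2.26, 2.38, 2.18 and 3.31 on the log2 scale. Their summed linear signal ran from 11330 to 20632 in mutants and from 3232 to 5489 in controls, over 14 genes of which 1 lay within 0.5 of the floor on all arrays. Of 15 pericyte markers 3 rose, Ifitm1, an interferon-inducible membrane protein, by 1.81, Art3, an ADP-ribosyltransferase, by 1.81, and Higd1b by 0.85 (limma adjusted p = 0.041, lost in all settings with an array left out except without control 2), and none was called lower (median 0.12). Of this list Notch3, a receptor of mural cells, differed by -0.70 (adjusted p = 0.125, and -0.83 without control 1) and Ndufa4l2 by -0.60 (adjusted p = 0.255), neither past the test. Of 14 endothelial markers the transcription factor Erg was called lower, by 0.63, and none was called higher. The median of this list was -0.21, with 13 of the 14 differences negative. Over all 11446 tested genes the median was -0.11, and 7913 differences were negative. The summed signal of the endothelial markers, in which the bright Cldn5 and Slco1c1 weigh most, ran from 60960 to 81969 in mutants and from 81707 to 94015 in controls. Mutant 4 alone set the low end, and the other mutants ran from 76602 to 81969. The part that the added macrophage transcripts, or the endothelial share, had in the contractile values was not tested.

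Of 15 fibroblast and meningeal markers the transcription factor Twist1 rose by 0.46 (a call lost without mutant 3, control 2 or control 3, with an adjusted p of up to 0.0689) and none was called lower (median -0.03, 9 of the 15 negative). The largest difference of that list was that of Fmod, fibromodulin, a collagen-binding matrix protein, at -1.60 (limma adjusted p = 0.0693, and -1.81 without control 1), which missed the threshold. Fmod read 9.73, 10.67, 10.19 and 11.62 in mutants and 11.51, 12.11, 12.41 and 12.57 in controls, with control 1 lowest of the controls and just under mutant 4. None was called of 10 neuron markers (median 0.15), with Map2, a microtubule protein, at 10.15 ± 0.58 in mutants and 10.02 ± 0.36 in controls and Stmn2, a neuronal stathmin, at 9.97 ± 0.01 in mutants and 9.37 ± 0.33 in controls (called without control 1, limma adjusted p = 0.0339), or of 9 astrocyte and radial glia markers (median 0.15), with Vim as above and Fabp7, a fatty acid carrier of radial glia, at 14.65 ± 0.45 in mutants and 14.52 ± 0.20 in controls. Striated muscle, which shares tropomyosins and other proteins with smooth muscle, was nearly unmeasured: 13 of 15 markers did not pass the filter, 6 lay within 0.5 of the floor on all arrays, and the 2 tested, Des and the light chain gene Mylpf, did not pass. Pdgfrb, the altered gene, fell by 1.01 on its brighter probe set (limma adjusted p = 0.00132), at 11.56, 12.06, 11.83 and 11.93 in mutants against 12.87, 12.92, 12.80 and 12.82 in controls; a substitution need not alter transcript level, so this does not check the labels.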

How the data were processed

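Biotin-labelled cRNA of each brain was hybridised to 1 single-colour array, per the labels' protocols. GCRMA is the tool that the submitters' processing notes name for the deposited log2 values, one per probe set; its version is not given in the sources used here. Values between 2.18 and 16.49 show the log2 scale of the deposited table. Arrays give no counts, so their number limits the precision. The labels name no batch, litter or date. Arrays correlated at 0.967 to 0.991 within groups and 0.932 to 0.968 between them, and 0 pairs were identical.

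By the platform annotation, 34958 probe sets had 1 gene symbol, 932 several and 9211 none. Groups were compared by lmFit and eBayes (limma 3.58.1, R 4.3.3; two-sided, with no covariate), over 11446 genes above 4 on at least 4 arrays and separately over 19302 probe sets, with Benjamini-Hochberg adjustment over each whole table and a threshold of 0.05. The fit was tested on simulated data. It assumes equal variance in the groups. Members, the 11 further lists and the tests were chosen with earlier results of these data known. The text names all members, Pdgfrb, up to 4 called genes of each list with the smallest p (the 2 brightest where none was called) and the 5 genes most like the contractile profile. Lmod1, Acta1, Actb, Actg1, Srf, Mrtfb, Klf4, Notch3, Ndufa4l2, Fmod and Pecam1 were chosen after their values were seen. Some genes of the further lists are not reported here.

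Alternatives were no filter or one at 6, quantile normalization, centring of arrays, the replicate number as a block, averaging or another choice of probe sets, array weights, trended robust eBayes, a threshold of 0.01, and leaving out each array.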

Additional observations from a re-analysis of the deposited data

Results flagged for a closer look

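A pair of contractile values stood apart from the other arrays of their group by more than Dixon's 95% limit for 4 samples allows, among 36 groups checked, where chance gives about 5%. On the brightest probe set of Cald1, control 1 read 12.88 while the other controls lay from 13.01 to 13.03, a gap of 0.871 of the range. On the dim probe set 1449577_x_at of Tpm2, control 4 read 5.002 while the other controls lay from 4.78 to 4.81, a gap of 0.887 of the range. Both gaps are small on the log2 scale. The low values of control 1 in Acta2, Tagln, Tpm2 and Myl9 did not meet this limit, because control 2 widened the range at the other end.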

How the results depend on the processing

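The count of contractile genes called was 0 in each alternative except array weights, and so was that of contractile probe sets, for which averaging and preference among probe sets do not apply; both were 0 in each of the 8 settings with an array left out. With array weights 3 genes (Acta2 at -0.74, Tpm2 at -0.76, Myh11 at -0.88, limma adjusted p = 0.0262, 0.0323 and 0.0144) and 5 probe sets were called, but so were 27.6% of all tested genes, 3158 against 524. Control 1 had a weight of 0.58 and was not singled out: control 2 had 0.57, mutant 4 had 0.50 and mutant 1 had the lowest, 0.36. Mutant 3 had the highest, 6.60. Genes of the further lists called numbered 18, and 13 to 18 with an array left out; with array weights they were 55. The difference of Mylk was positive with arrays centred on their median (0.040), with the mean of its probe sets (0.17), and without mutant 1 (0.079) or control 2 (0.011), and ran from -0.13 to 0.079 with an array left out; it passed in none. The other 7 tested genes kept a negative difference in each alternative that tested them. That of Acta2 ran from -0.81 without control 1 to -0.04 with preference for probe sets without a suffix, which takes its dim probe set; that of Myh11 from -0.98 to -0.32. With preference for such probe sets Tpm2 was not tested. Centring gave a median of -0.02 over all genes, where it was -0.11 uncentred, and 7 of the 8 contractile differences were negative. With the replicate number as a block 0 contractile genes and 0 contractile probe sets were called, 13 list genes were, and 259 genes in all. Deviations of same-numbered arrays correlated at -0.08, -0.48, -0.20 and 0.30, and 0 of 4 mutant arrays correlated best with the control of its own number, so the numbers were not taken to pair the arrays. Values near the floor, as in Cnn1 and Myocd, limit what can be said of those genes.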
